A study of Mus musculus with 18 samples.

Results

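In thymocytes that had lost Satb1, 34 megabase windows of the mouse autosomes held a larger share of the cohesin peaks than in wild-type thymocytes. They were chosen from the SMC1A peak lists. Each autosomal 1 Mb window with a mean of 5 or more SMC1A summits over the 4 lists was given a density per list, its summits plus 0.5 divided by the list's autosomal total. A window was kept where the lower KO density was at least 1.5 times the higher WT density. Of 1239 windows tested, 34 (2.74%) met the rule, and they held 614 of the 34329 merged autosomal SMC1A regions. The other 1205 windows tested held 30866 regions. The mirror rule, with WT densities on top, kept 5 windows (0.404%).

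The series profiled sorted DP thymocytes, the CD4+CD8+ stage of thymus development, by CUT&RUN, which reads the DNA that a nuclease, tethered by an antibody, cuts loose around a chromatin protein. The groups were Satb1 KO thymocytes and WT thymocytes, both from mice treated with tamoxifen, the drug that induced the deletion. The labels do not give the recombinase, the strain or the age of the mice, nor whether replicates are different animals, so any p-value measures only the spread between these libraries. Of 18 samples, 7 peak lists were used: 2 KO and 2 WT for SMC1A, and 2 KO and 1 WT for CTCF. The lists held 27459 and 20172 autosomal SMC1A peaks in KO replicates 1 and 2, against 19466 and 20152 in WT replicates 1 and 2. The CTCF lists held 54222 and 22351 peaks in KO and 38222 in WT. The lists carry no read numbers, so depth is unknown and the intervals given for shares cover counting error only. Such lists record neither the deletion nor expression, so neither genotype nor cell type could be checked with them. At Cd4, Cd8a, Cd8b1, Rag1, Rag2, Ptcra and Cd3e, which mark DP thymocytes, every SMC1A list held at least 2 regions within 20 kb.

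Cohesin is a ring-shaped complex that holds DNA strands and draws them into loops, and SMC1A is one of its core proteins. Cohesin sliding along DNA is often stopped by CTCF, a DNA-binding zinc finger protein, so in most cells cohesin peaks lie at CTCF sites, and the others lie largely at promoters and enhancers. SATB1 is a chromatin organiser abundant in thymocytes, where it takes part in the control of T cell genes.

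Most results concern regions listed in both KO libraries and in neither WT library, called gained below. Of the gained regions in the 34 windows, 11 touched a promoter of the RefSeq table, defined as 250 bases before to 50 bases after a gene's start. In 7 promoters the strongest summit of a gained region falls inside. Of these, 4 are printed, picked after their values were seen. They run 5′ to 3′ on the gene's strand, and the capitals mark the 21 bases around that summit. Build GRCm38.p6 (RefSeq) places them at chr10:19712337-19712636 on the plus strand (Il20ra), chr11:90390868-90391167 on the minus strand (Hlf), chr13:95375308-95375607 on the minus strand (Aggf1) and chr7:104446076-104446375 on the minus strand (Trim30a).
Il20ra: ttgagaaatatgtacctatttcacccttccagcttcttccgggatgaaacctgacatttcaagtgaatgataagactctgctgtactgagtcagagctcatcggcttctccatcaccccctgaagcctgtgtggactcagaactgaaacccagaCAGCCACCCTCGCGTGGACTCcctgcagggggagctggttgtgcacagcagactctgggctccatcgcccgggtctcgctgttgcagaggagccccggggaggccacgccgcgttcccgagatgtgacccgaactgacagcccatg
Hlf: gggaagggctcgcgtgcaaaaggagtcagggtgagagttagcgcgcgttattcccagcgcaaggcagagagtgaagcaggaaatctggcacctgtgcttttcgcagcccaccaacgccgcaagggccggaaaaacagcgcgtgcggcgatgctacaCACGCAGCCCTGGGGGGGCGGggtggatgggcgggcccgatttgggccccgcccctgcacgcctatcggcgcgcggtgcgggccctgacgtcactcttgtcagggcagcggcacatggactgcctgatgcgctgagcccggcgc
Aggf1: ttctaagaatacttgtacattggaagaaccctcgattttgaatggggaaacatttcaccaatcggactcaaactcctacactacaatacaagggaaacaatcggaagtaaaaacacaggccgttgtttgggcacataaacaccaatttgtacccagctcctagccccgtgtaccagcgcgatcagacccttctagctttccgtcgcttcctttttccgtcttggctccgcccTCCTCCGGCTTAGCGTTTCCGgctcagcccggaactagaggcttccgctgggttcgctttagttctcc
Trim30a: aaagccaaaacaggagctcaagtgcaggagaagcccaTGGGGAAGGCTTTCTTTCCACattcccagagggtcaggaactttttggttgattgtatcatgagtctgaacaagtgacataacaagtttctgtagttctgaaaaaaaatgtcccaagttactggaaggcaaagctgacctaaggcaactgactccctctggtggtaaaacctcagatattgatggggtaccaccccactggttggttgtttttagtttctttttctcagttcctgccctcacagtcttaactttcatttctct
Il20ra encodes a chain of the receptor for the cytokine IL-20, Hlf a basic leucine zipper transcription factor of blood stem cells, Aggf1 a secreted angiogenic factor, and Trim30a an interferon-inducible TRIM protein. Searched on both strands, the CTCF core consensus was found in the Trim30a promoter, where it begins at base 191 and the summit lies at base 48. It was not found in the other 6 of the 7. The same search found it in 287 of 32851 promoters of the table (0.874%), and in 6 of 336 promoters of the 34 windows (1.79%). A match of letters is a description and not a bound site.

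By their medians the windows were sparse in cohesin, and in WT lists more so than in KO lists. In the median window the KO lists had 13 and 9.5 summits, against 4 and 4 in the WT lists. As densities per 1000 summits of the list, the median was 0.492 and 0.496 in KO, against 0.231 and 0.223 in WT. The other windows tested had medians of 0.674 and 0.669 in KO and of 0.642 and 0.670 in WT. The median chosen window thus stayed below the usual density in both genotypes. Single windows could lie above it: chr10:19000001-20000000 had 1.77 and 1.96 in KO and 1.10 and 0.868 in WT. Together the chosen windows took 1.97% and 1.92% of the KO lists and 0.837% and 0.849% of the WT lists. The mean log2 density change, KO minus WT, had a median of 1.06 and ran from 0.76 to 3.17, and it was -0.01 in the median other window. Within batch 1 the median was 1.09 and within batch 2 it was 1.06. These densities chose the windows and are given without a test.

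**Figure D1:**
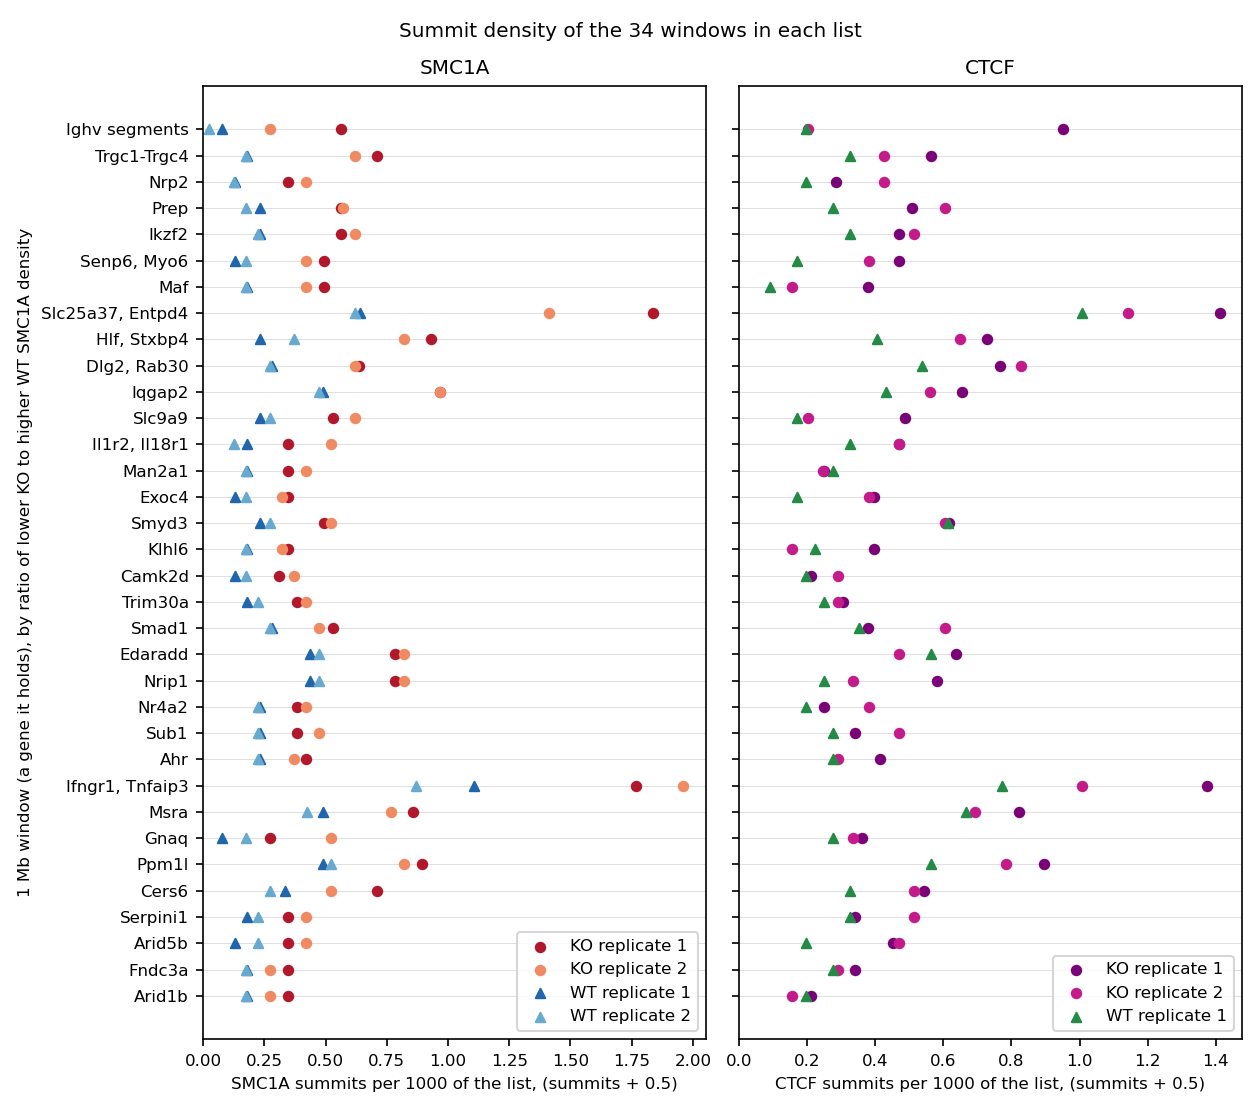
SMC1A (left) and CTCF (right) summits per 1000 summits of each list, for the 34 windows, each named by a gene it holds and ordered by the ratio of the lower KO to the higher WT SMC1A density. Circles are KO replicates and triangles WT replicates. The SMC1A circles lie right of the triangles in all 34 windows because the rule chose them so, and the CTCF circles do so in 29.

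The windows were scattered. They lay on 16 of the 19 autosomes, with at most 4 on 1 chromosome, and none touched another. Of the windows directly beside them, 33 could be tested and 0 met the rule, with a median log2 SMC1A change of 0.10 and 23 values above 0. The 3 windows just inside the threshold had ratios of 1.516, 1.516 and 1.549, at Arid1b (chr17:4000001-5000000), at Fndc3a (chr14:72000001-73000000) and at Arid5b (chr10:68000001-69000000). Just outside it were chr1:156000001-157000000 at 1.491, chr5:96000001-97000000 at 1.480 and chr5:75000001-76000000 at 1.460. The number of windows that met the rule rested on having replicates on each side: it was 57 without KO replicate 2, 84 without WT replicate 1 and 81 without WT replicate 2, where the mirror rule kept 19, 14 and 18. Without KO replicate 1 the numbers were 41 and 19.

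In the 34 windows, 146 of the 614 SMC1A regions were gained (23.8%), where 6.31% of regions in all windows tested were gained. A further 254 were in 1 KO list alone, 202 of them in replicate 1, which has the longest list. Only 107 regions were in all 4 lists (17.4%), against 36.5% in the other windows. Just 1 region was lost, meaning in both WT lists and neither KO list, where 1.7% of regions in all windows tested were lost. With KO replicate 2 left out, 350 regions were in KO replicate 1 and in no WT list. These shares follow from how the windows were chosen and nothing is read from them. Every window held at least 1 gained region, with a median of 4 and a highest number of 16. Within a window the gained regions were spread over 411.6 kb in the median, from 21.8 to 807.8 kb. Gained regions had a median width of 460.5 bp, against 804 bp for the regions in all 4 lists. In the other windows these widths were 424 and 695 bp. A region spans all its joined peaks, so one held by more lists can be wider. The median −log10 q of the gained regions, as the authors' peak caller gave it, was 8.24 in KO replicate 1 and 5.14 in KO replicate 2. In 66 of them it was 5 or more in both KO lists. Protein-coding gene bodies held 73 of the gained regions (50%) and 44 of the regions in all 4 lists (41.1%). A promoter was touched by 7.53% of the gained regions and by 37.4% of the regions in all 4 lists. In the other windows these shares were 9.51% and 39.6%.

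**Figure D2:**
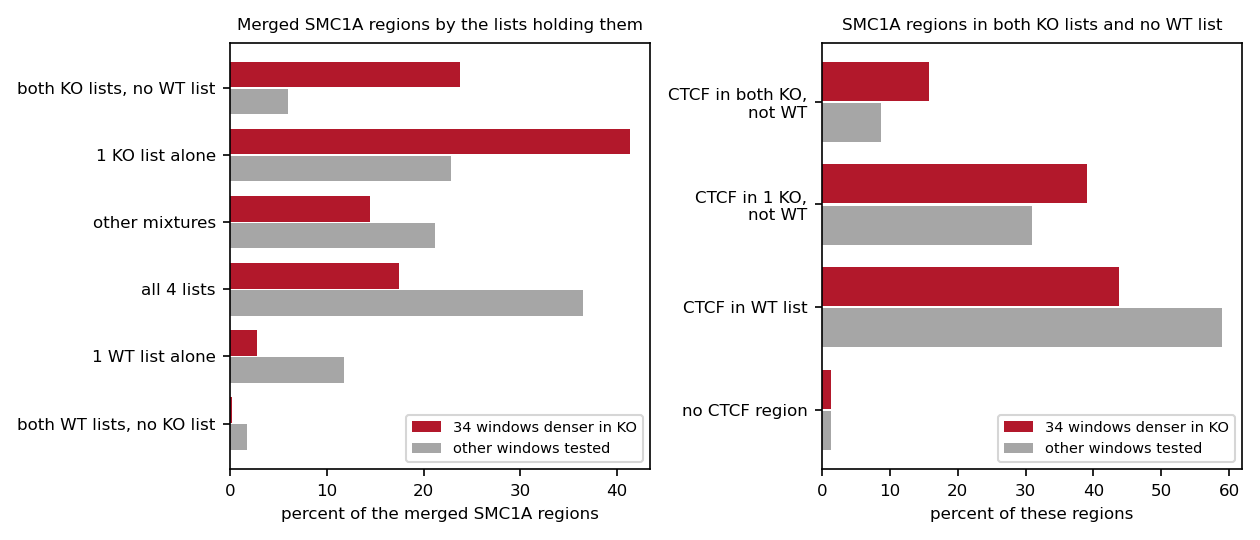
Left, the percentage of merged SMC1A regions held by each combination of lists, in the 34 windows (red) and in the other windows tested (grey). Right, the gained regions split by the CTCF lists that hold a region there. Gained regions made up 23.8% of the left red bars, and 43.8% of them lay at a region of the WT CTCF list, against 59.0% in the other windows. For all SMC1A regions these shares were 53.4% and 74.2%.

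The 2 windows with the highest ratios lay in antigen receptor loci. The window chr12:115000001-116000000 lies in the immunoglobulin heavy chain locus and holds 42 variable (IGHV) segments and 0 other protein-coding genes. It had 15 and 5 SMC1A summits in KO and 1 and 0 in WT, and the ratio was 3.54. Of its 16 regions, 3 were gained and 0 were in all 4 lists. Those 3 lay within 20 kb of 5 of the segments. The best region held by both KO lists was at chr12:115655644-115656172, with a −log10 q of 12.7 and 5.08 in KO and 6.20 in WT replicate 1. Many IGHV segments are similar to each other. How the authors treated reads that map to several of them is not given in the sources used here, so these values are uncertain.

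The window chr13:19000001-20000000 holds the T cell receptor gamma locus, with the constant regions Trgc1 to Trgc4 and 7 variable segments. It had 19 and 12 SMC1A summits in KO, against 3 and 3 in WT, and a ratio of 3.45. Of its 21 regions 8 were gained, and 2 were in all 4 lists. A region in all 4 lists at chr13:19177573-19178676, which covers Trgv7, reached a −log10 q of 52.0 and 41.2 in KO and of 8.45 and 9.15 in WT. A few kb away, at chr13:19181813-19182804, lay the strongest gained region of the locus, with values of 20.2 and 18.9 in KO. It overlapped a peak of both KO CTCF lists and none of the WT CTCF list. Trgc4 had 2 gained regions within 20 kb, Trgc1 had 1, and Trgc2 and Trgc3 had 0. Outside the receptor genes, Stard3nl, a late endosome membrane protein, and Nme8, a cilium protein, each had 2 gained regions within 20 kb, and Amph, an endocytosis adaptor, had 1. The segments of this locus are also similar to each other. Another receptor locus, that of the immunoglobulin lambda light chain, lay in chr16:19000001-20000000 with 3 variable segments and 3 constant regions. That window had 9 and 6 SMC1A summits in KO and 3 and 3 in WT, and 1 gained region, which was not near a segment.

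Among genes of transcription factors, Ikzf2 lay in chr1:69000001-70000000, which had 15 and 12 SMC1A summits in KO and 4 and 4 in WT. Ikzf2 encodes Helios, a zinc finger factor of regulatory T cells. Its body held 2 gained regions. The stronger, at chr1:69681012-69681412, reached a −log10 q of 19.7 and 11.3 in KO and overlapped a CTCF peak of KO replicate 1 alone. Beside the gene, at chr1:69688742-69689420, a region held by 3 lists had 17.6 and 15.2 in KO and 6.91 in WT replicate 1. Erbb4, a receptor tyrosine kinase, and Spag16, a sperm flagellum protein, share the window and had 0 gained regions within 20 kb.

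The window chr8:115000001-116000000 holds Maf, a basic leucine zipper factor of helper T cells, and part of Wwox, an oxidoreductase. It had 13 and 8 SMC1A summits in KO and 3 and 3 in WT. Its 4 gained regions lay in Maf at chr8:115705693-115706076, with values of 5.77 and 5.24, and between the genes, with the strongest at chr8:115514326-115514960 and values of 23.7 and 10.2. All 4 overlapped a CTCF peak of KO replicate 1 and none of KO replicate 2 or WT. Beside Maf, chr8:115707060-115708592 was in all 4 lists, at 52.4 and 33.5 in KO and 20.8 and 12.8 in WT.

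Hlf and Stxbp4, a syntaxin-binding protein, lie in chr11:90000001-91000000, with 25 and 16 SMC1A summits in KO and 4 and 7 in WT. Stxbp4 had 3 gained regions in its body and Hlf had 2 within 20 kb. At the Hlf promoter printed above, the gained region chr11:90390883-90391239 reached a −log10 q of 25.3 and 5.14 in KO. It overlapped CTCF peaks of KO replicate 1 and of WT. Within 100 kb of the Hlf start, the KO lists held 8 and 5 SMC1A peaks and the WT lists 0 and 1. The strongest gained region of the window lay in Stxbp4, at chr11:90512446-90513287, with 25.3 and 15.3. The strongest region shared by all 4 lists lay at Mmd, a membrane protein of maturing macrophages, with 102 and 44.9 in KO and 52.2 and 42.1 in WT.

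Several other regulators lay in windows with lower ratios and were picked out after their values were seen. Nrip1, a corepressor of nuclear receptors, is the only protein-coding gene of chr16:76000001-77000000, which had 21 and 16 SMC1A summits in KO and 8 and 9 in WT. It had 3 gained regions within 20 kb. Nr4a2, an orphan nuclear receptor induced by T cell receptor signals, had 2 gained regions in its body, in a window with 10 and 8 summits in KO and 4 and 4 in WT. Arid5b, a DNA-binding cofactor, had 3 gained regions in its body, in a window with 9 and 8 summits in KO and 2 and 4 in WT. Ahr, the aryl hydrocarbon receptor, had 1 in its body, in a window with 11 and 7 in KO and 4 and 4 in WT. Arid1b, a subunit of the BAF chromatin remodeller, had 1 just outside its body, in the window with 9 and 5 in KO and 3 and 3 in WT.

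**Figure D3:**
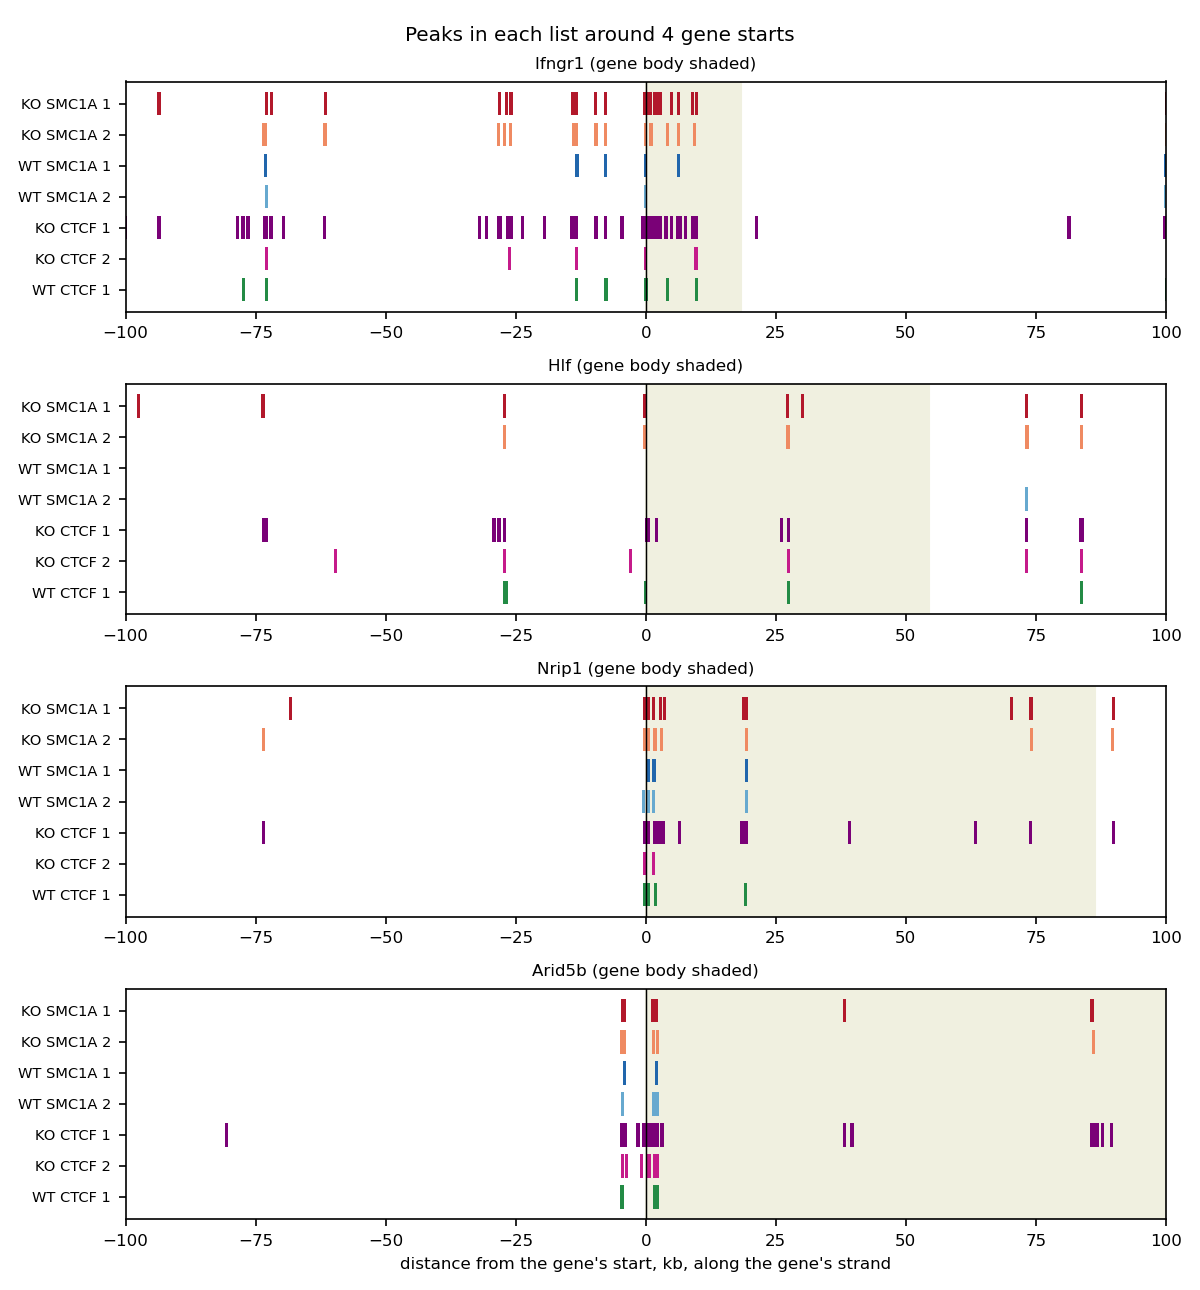
Peaks of each SMC1A and CTCF list within 100 kb of the starts of Ifngr1, Hlf, Nrip1 and Arid5b, drawn by distance in kb along the gene's strand, with the gene body shaded and peaks widened where needed to be visible. The KO rows hold more SMC1A peaks than the WT rows at each gene: 18 and 16 against 6 and 3 at Ifngr1, 8 and 5 against 0 and 1 at Hlf, 10 and 8 against 3 and 4 at Nrip1, and 4 and 5 against 2 and 3 at Arid5b. These genes lie in windows that the rule chose for denser SMC1A in KO, so an excess is largely built in. The counts are not divided by the length of the list.

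The windows of Ifngr1 and of Il1r2 hold cytokine receptor genes. The window chr10:19000001-20000000 was among the densest, with 48 and 39 SMC1A summits in KO and 21 and 17 in WT, and a ratio of 1.60. It holds Tnfaip3, which encodes the NF-kB inhibitor A20, Ifngr1, the ligand-binding chain of the interferon gamma receptor, the cytokine receptor genes Il20ra and Il22ra2, and Map3k5, a stress-activated kinase. Of its 52 regions 12 were gained and 12 were in all 4 lists. Il20ra had 3 gained regions within 20 kb, Ifngr1 and Map3k5 had 2 each, and Tnfaip3 had 0. The strongest gained region of all 34 windows by its lower KO value lay upstream of Ifngr1, at chr10:19565601-19566455, with a −log10 q of 44.2 and 26.6. It overlapped CTCF peaks of both KO lists and none of the WT list. Only 1 of the 12 gained regions overlapped a WT CTCF peak. At the starts of Ifngr1 and Tnfaip3 a region was in all 4 lists, with 80.7 and 44.9 in KO and 32.5 and 11.4 in WT at Ifngr1, and 119 and 44.7 in KO and 46.5 and 41.3 in WT at Tnfaip3. The local background of this window was also higher than usual, as given below.

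The window chr1:40000001-41000000 holds receptors of the interleukin 1 family, with 9 and 10 SMC1A summits in KO and 3 and 2 in WT, and a ratio of 1.92. Il1r2, a decoy receptor for interleukin 1, had 2 gained regions in its body, the stronger by its lower value at chr1:40116427-40116851 with a −log10 q of 5.63 and 6.03 in KO. Il1rl2, the interleukin 36 receptor, had 1 within 20 kb. Il18r1, a chain of the interleukin 18 receptor, and Il1rl1, the interleukin 33 receptor, had 0. All 3 gained regions of the window overlapped CTCF peaks of the KO lists and of the WT list.

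The other windows among the 12 with the highest ratios held genes of mixed function. In chr1:62000001-63000000, which had 9 and 8 SMC1A summits in KO and 2 and 2 in WT, Nrp2, a receptor for semaphorins, had 1 gained region in its body. In chr10:45000001-46000000, with 15 and 11 in KO and 4 and 3 in WT, Prep, a prolyl peptidase, had 1 gained region in its body, and the 3 others lay outside it, between 24038 and 63492 bp away. None of these 4 overlapped a WT CTCF peak. In chr9:80000001-81000000, with 13 and 8 in KO and 2 and 3 in WT, the SUMO protease gene Senp6 and the photoreceptor matrix gene Impg1 had 2 gained regions each within 20 kb, and Myo6, an unconventional myosin, had 1.

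The window chr14:69000001-70000000 had the most SMC1A summits of the 34 in KO replicate 1, with 50 and 28 in KO and 12 and 12 in WT, and it held 16 gained regions. The overlapping models Gm16867 and Gm21451 each had 6 within 20 kb, and Entpd4b, a copy of the nucleotide-hydrolysing enzyme gene Entpd4, had 4. Slc25a37, the mitochondrial iron importer of erythroid cells, had 0. This stretch carries duplicated genes, so its peaks could be shared between copies. In chr13:95000001-96000000, with 26 and 19 in KO and 9 and 9 in WT, the scaffold gene Iqgap2 had 5 gained regions in its body, F2rl2, a protease-activated receptor, had 3 within 20 kb, and Sv2c, a synaptic vesicle protein, had 2.

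In chr7:92000001-93000000 the KO lists had 17 and 12 summits and the WT lists 5 and 5. Dlg2, a synaptic scaffold, had 1 gained region in its body, and Ccdc90b, a mitochondrial protein, and Ddias, an inhibitor of apoptosis after DNA damage, had 1 each within 20 kb. In chr9:94000001-95000000, with 14 and 12 in KO and 4 and 5 in WT, 4 of the 6 gained regions lay between Dipk2a, a secreted kinase-like protein, and Slc9a9, an endosomal sodium-proton exchanger. The strongest of them, at chr9:94607082-94608115, had a −log10 q of 19 and 8.22. None of the 6 overlapped a WT CTCF peak. The other 20 windows, beyond those at Il1r2 and Ifngr1, had ratios between 1.52 and 1.92.

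The listed immune, housekeeping and marker genes were mostly elsewhere. Of 232 autosomal genes in 13 lists, 10 lay in the 34 windows, where 1.15% of all 20665 autosomal protein-coding genes did (237 genes). The 10 included Trgc1 to Trgc4 among 28 T cell receptor, coreceptor and signalling genes (14.3%). Trgc1 to Trgc4 are constant regions of 1 locus and are not counted among the protein-coding genes. Ikzf2 was among 11 regulatory T cell genes (9.09%), and Il18r1 and Il1rl1 among 21 cytokine, effector and egress genes (9.52%). Ifngr1 and Tnfaip3 were among 36 interferon and NF-kB genes (5.56%), and Slc25a37 among 10 erythroid markers (10.0%). The shares of these lists lie above 1.15%, but in lists this short a single gene is enough for that. The 8 other lists had 0, among them 31 T-lineage transcription factors, 20 apoptosis and survival genes, 13 housekeeping genes, 19 genes of cohesin, CTCF and nuclear architecture, and the markers of B cells, myeloid cells, thymic epithelium, endothelium and stroma. The counts are small and were not tested, and in lists this short 1.15% is less than 1 gene. The windows were poor in genes, with a median of 5 protein-coding genes, against 11 in the other windows tested and 7 in those of them with a mean under 10 SMC1A summits.

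CTCF was not used to choose the windows, and its density was higher in KO there as well. In the median window the CTCF density per 1000 summits was 0.470 and 0.447 in KO replicates 1 and 2, against 0.275 in WT. In the other windows it was 0.655 and 0.649 in KO and 0.615 in WT. The log2 change against the WT list had a median of 0.53 in KO replicate 1, from the same batch as that WT list, and of 0.46 in KO replicate 2, for which no WT list of its batch was used. In the other windows the medians were -0.04 and -0.01. Averaged over the KO lists, the change had a median of 0.56 in the 34 windows and of -0.03 in the others, and of 0.03 in the 391 other windows with a mean under 10 SMC1A summits, a comparison chosen after seeing the data. Both KO lists were above WT in 29 of the 34 windows, where this held for 27.4% of all windows tested. Both were at least 1.5 times WT in 7, where 2.91% of all windows tested were. These 7 were the windows of Prep, Senp6, Maf, Hlf, the exocyst subunit Exoc4, the ceramide synthase Cers6 and Arid5b. At Maf, KO replicate 2 and WT had 3 CTCF summits each, so that ratio comes from the list totals alone. Both KO lists were below WT in 1, the window of Man2a1, a Golgi mannosidase. It had 13 and 5 CTCF summits in KO and 10 in WT. The labels do not say whether the SMC1A and CTCF libraries came from the same cells, so the marks may share a sample.

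**Figure D4:**
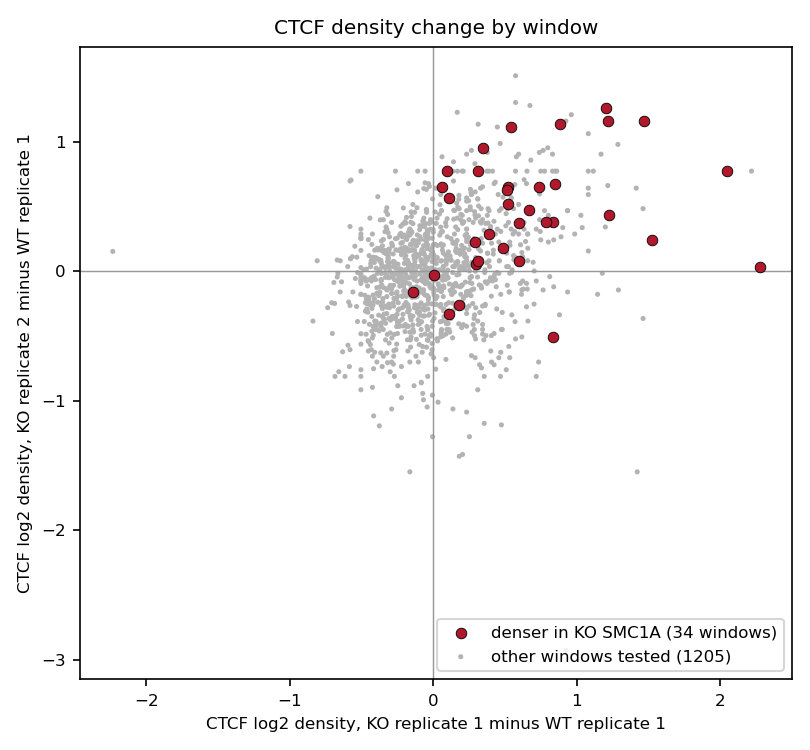
Change of CTCF log2 density against the WT list in KO replicate 1 (x axis) and KO replicate 2 (y axis), 1 point per 1 Mb window. Red points are the 34 windows and grey points the other 1205 tested. Most red points lie in the upper right, with medians of 0.53 and 0.46, and the grey cloud is centred near 0.

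No window's CTCF change passed a test by itself. In a limma fit over 1550 windows with a mean of 5 or more CTCF summits, 0 were called higher in KO (0%) and 0 lower (0%) at an adjusted p of 0.05. At an unadjusted p of 0.05, 32 were higher and 2 lower, of which 5 and 0 were among the 34. The windows of these 5 were those of Arid5b (log2 change 1.23 ± 0.37, SE), Senp6 (1.31 ± 0.41), Prep (1.01 ± 0.33), Exoc4 (1.19 ± 0.40) and Hlf (0.76 ± 0.27), each with a limma adjusted p of 0.9998. The fit has 2 KO lists and 1 WT list, so its spread comes from the KO lists alone, and 0 calls do not show that densities were equal.

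The KO CTCF lists did not move together everywhere. In the IGHV window KO replicate 1 had 51 CTCF summits, KO replicate 2 had 4 and WT had 7, which are log2 changes of 2.28 and 0.04. In the lambda light chain window they had 21, 3 and 8, changes of 0.83 and -0.51. At Maf they had 20, 3 and 3, changes of 2.05 and 0.77, and at Slc9a9 26, 4 and 6, changes of 1.52 and 0.24. There both KO lists were above WT, but by unlike amounts. By contrast, at Arid5b the 24, 10 and 7 summits gave changes of 1.20 and 1.26, and at Exoc4 the 21, 8 and 6 gave 1.22 and 1.16. At the T cell receptor gamma locus there were 30 and 9 in KO and 12 in WT, changes of 0.78 and 0.38, and at Ifngr1 74 and 22 in KO and 29 in WT, changes of 0.83 and 0.38.

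Counted as regions, CTCF peaks in both KO lists and not in WT made up 52 of the 1065 merged CTCF regions of the 34 windows (4.88%), where 2.18% of regions in all windows tested were of this kind. Regions in the WT list alone were 60 (5.63%), where 11.2% in all windows tested were. KO replicate 1 alone held 578 (54.3%), against 36.6% in the other windows, and all 3 lists held 218 (20.5%), against 27.8%. Either KO list decides the first count: it was 105 from KO replicate 2 and WT alone and 632 from KO replicate 1 and WT alone.

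The gained cohesin regions lay at CTCF peaks in nearly all cases, as elsewhere. Of the 146, 144 overlapped a CTCF region of some list (98.6%, 95% exact Clopper-Pearson interval 95.1% to 99.8%), against 98.7% of the gained regions in other windows. This share rests on the long KO replicate 1 list: without it, 56.8% overlapped CTCF. The lists that held the CTCF peak were split differently. A WT CTCF peak was present at 64 gained regions (43.8%), against 59.0% in the other windows. Both KO lists but not WT held one at 23 (15.8%), against 8.75%, and 1 KO list alone held one at 57 (39.0%), against 31%. The other 2 gained regions, both in the window of Smad1, a mediator of BMP signals, overlapped no CTCF region.

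The local background of the peaks had a lower median in these windows in every library. Solved from the deposited fold and p values, its median in the 34 windows was 0.857 times that of the other windows in each KO and each WT SMC1A list. Solved backgrounds often fall on fixed steps within a list, so the equal factor does not measure how closely the SMC1A libraries match. For CTCF the factor was 0.896 and 0.875 in KO and 0.879 in WT. In the Ifngr1 window the median background was 1.41 and 0.772 reads in the KO SMC1A lists and 1.07 and 0.934 in the WT lists, above the medians of 0.989 and 0.60 and of 0.833 and 0.726 in the other windows.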

How the data were processed

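CUT&RUN peak lists for SMC1A and CTCF in sorted thymocytes were analysed. The lists are MACS2 narrowPeak files, 1 per library and not pooled, and the submitters' processing notes also name Trimmomatic 1.24, Bowtie2, SAMtools, deepTools, R 4.12 and the mm10 build. Settings and the control of the peak calling are not stated there. The authors deposited a fold enrichment (ratio over local background) and −log10 p and −log10 q values for each peak, and the highest q in a list was 0.0498. Offsets of summits in bp were the other deposited column used. Fold and q values are the peak caller's own and are read only within a list. The remaining samples of the series, which include a second WT CTCF library, were not used here.

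The windows, and the gene lists used to describe them, were chosen with earlier results of these data known. Overlapping peaks of a mark (1 bp or more) were joined into regions, and a region belongs to the window of its midpoint. Pile-up and background were solved from fold and −log10 p under a Poisson model, within 0.001, for 99.1% to 99.9% of the peaks of a list. CTCF density was tested with limma 3.58.1 (R 4.3.3) on log2((summits + 0.5) per 1000000 summits). The fit used a mean-variance trend and Benjamini-Hochberg adjustment over all windows. On simulated data this step recovered few of the windows changed 2-fold and more of those changed 4-fold. Genes and promoters came from RefSeq tables of GRCm38.p6, which is the mm10 assembly. Exons and the genome were not among them, so exonic or intronic positions are not stated. Tables were handled with pandas 2.3.3, scipy 1.17.1 and numpy 2.4.6 under Python 3.11.15, and drawn with matplotlib 3.10.9.

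Windows described in full were the 12 with the highest ratio and those holding a listed gene. In each, the listed genes and up to 3 protein-coding genes with the most gained regions within 20 kb of the body were named. Genes of other windows were picked with their values in view. The labels give each replicate number as a batch, so the numbers pair the samples. Over 1239 windows, the deviations of same-numbered SMC1A lists from the mean of their genotype correlated at 0.0103. Alternatives tried were stronger peaks, lists of equal length, other filters, pseudocounts, scalings and window grids, summits within 200 bp, the replicate block, and leaving out each replicate.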

Additional observations from a re-analysis of the deposited data

How the results depend on the processing

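The number of windows denser in KO SMC1A, 34, was 17 with −log10 q of 5 or more, 27 with lists of equal length, 9 with a mean of 10 or more summits, 99 with no filter, 34 with windows shifted by 500 kb and 48 with 500 kb windows. Leaving out 1 SMC1A list gave 41 to 84. The mirror count, 5, was 2, 3, 2, 34, 5 and 6 in the same order of settings, 9 with scaling by the median window, and 14 to 19 with 1 list left out. With the replicate block, which asks that each same-numbered ratio be 1.5 or more, 47 windows met the rule and 6 met the mirror rule. The 34 are among the 47 by construction, since the block is looser than the main rule. No paired fit of CTCF was possible because 1 WT CTCF list was used. Of the 34, 8 met the rule with the stronger peaks, where 21 were too sparse to be tested, 23 with lists of equal length, 27 with scaling by the median window and 34 with a pseudocount of 0.1. The 7 windows that met it under all 9 settings on the same grid were those of Trgc1 to Trgc4, Hlf, Iqgap2, Slc9a9, Nrip1, Ifngr1 and Msra. Of the 9, the replicate block and leaving out a WT list cannot lower a window's ratio, so all 34 met those settings. Leaving out a KO list cannot lower it either. The windows that failed there, 12 without KO replicate 1 and 5 without KO replicate 2, were too sparse to be tested.

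Gained SMC1A regions numbered 87 with the stronger peaks, and 174 to 350 with 1 list left out, the highest without KO replicate 2. Their share at CTCF was 87.5% with lists of equal length and 56.8% to 98.9% with 1 list left out. CTCF regions in the KO lists and not in WT numbered 105 and 632 without KO CTCF replicate 1 and 2. The median CTCF log2 change over the 34 windows was 0.56. With 1 KO CTCF list left out it was 0.43 (33 windows) and 0.53. With the stronger peaks it was 0.42 (33 windows), and with scaling by the median window it was 0.45. That scaling moved the other windows of the CTCF fit to a median of -0.11, where it was -0.01. The limma fit called 0 windows under each alternative run, and leaving out a KO CTCF list left no residual degrees of freedom. Low counts limit most of these windows: 25 of 34 had a mean under 10 SMC1A summits, as did 32.4% of the other windows tested, and depth is unknown.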
